A study of Mus musculus with 9 samples.

Results

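Shexiang Baoxin Pill (SBP) is an oral traditional Chinese medicine. Gene expression in the injured heart of mice that had received it beforehand was compared with that of the uninjured heart, so as to describe which genes remained changed 24 h after ischemia. The comparison was set by the labels, as the 3 SBP samples (named MUSKARDIA there) against the 3 sham samples, 6 of the 9 samples of the study. These 6 libraries held 31897 of the 49171 nuclei in the files. The files hold fewer nuclei than the study states that it kept after quality control. Each library came from the heart of 1 mouse, and was read by single-nucleus RNA sequencing (sNuc-seq). A barcode marks the nucleus of each transcript, and a unique molecular identifier (UMI) marks the transcript molecule itself. The mice were C57BL/6 animals, 8 weeks old per the study's methods. For 7 days sham mice were gavaged with vehicle, and in the operation only the needle was passed, without tying the left anterior descending coronary artery (LAD). SBP mice were gavaged with SBP solution over the same 7 days and underwent 30 min of LAD ligation and 24 h of reperfusion. The 3 mice of the ischemia-reperfusion (I/R) group had vehicle for 7 days and the same ligation and reperfusion, and their values are given beside those of SBP. No library of uninjured mice given SBP was analysed here. SBP and sham differ in both injury and drug, which cannot be told apart in this comparison. As the study describes it, tissue below the ligation was taken.

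As background, restored flow after a coronary occlusion leaves dying cardiomyocytes, the contractile cells of the heart. Within the first day neutrophils and monocytes enter the tissue, and macrophages that clear dead cells appear. Fibroblasts become activated, divide and lay down new matrix, and surviving cardiomyocytes turn to a stress programme that includes the fetal myosin gene Myh7. The molecular clock, in which Clock and Arntl drive output genes such as Dbp through E-box sequences, also sets the daily rhythm of many genes of the heart.

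UMIs were recovered from the log values in the files, summed over all nuclei of a library and given as CPM, which puts the UMIs of every gene on 1 common library total after scaling by trimmed mean of M values (TMM). Log2 fold changes are on the scale of log2(CPM + 1), which understates the change of low genes. A gene was called at an adjusted p of at most 0.05 (limma, Benjamini-Hochberg over all genes tested) together with an absolute log2 fold change over 0.25. Values with ± are the mean and SD of 3 mice. Sums over all nuclei of a library are called whole-heart sums below, although only tissue below the ligation was taken. Such sums cannot tell fewer cells of a type from less RNA per cell.

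Of 16078 genes tested, 527 (3.28%) were called between SBP and sham, 252 higher (1.57%) and 275 lower (1.71%) in SBP. At an unadjusted limma p under 0.05 there were 3560 genes (22.1%). For 5290 genes (32.9%) the 3 SBP values lay all above or all below the 3 sham values, in 2422 above (15.1%) and in 2868 below (17.8%). The median log2 fold change over all genes was −0.01 and the median absolute value 0.228, against a median SE of 0.197. In the same fit I/R and sham differed in 1830 genes (11.4%), 956 higher (5.95%) and 874 lower (5.44%) in I/R, with 4585 (28.5%) at an unadjusted p under 0.05. Both contrasts use the same 3 sham mice. On the first principal component, with 48.3% of the variance, the sham libraries lay between −47.1 and −41.6 and the SBP libraries between 5.33 and 20.2.

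The 6 libraries held 4576 to 5919 nuclei and 10329520 to 17677640 UMIs each, with a median of 1540 to 1973 UMIs per nucleus. Among them, 112 barcodes occurred in more than 1 library, which touches 224 nuclei. Of the marker genes of each cell type, 4 of 10 cardiomyocyte markers were called lower, 2 of 10 fibroblast and 2 of 5 neutrophil markers were called higher, and 0 of 10 endothelial and 0 of 10 myeloid markers were called. Of all genes 1.57% were called higher and 1.71% lower. The summed level of the cardiomyocyte markers was 32983 to 42212 CPM in sham and 20741 to 20994 CPM in SBP. Neutrophil markers summed to 15.5 to 33.3 CPM in sham and 65.1 to 122.5 CPM in SBP, and B cell markers to 87.1 to 154 CPM and 42.3 to 73.4 CPM. Endothelial (2248 to 2654 against 1962 to 3188 CPM) and fibroblast markers (3833 to 4479 against 3992 to 4851 CPM) overlapped between the groups. Smooth muscle and pericyte markers lay at 401 to 499 CPM in sham and 271 to 329 CPM in SBP, and Schwann cell markers at 254 to 271 CPM and 276 to 334 CPM, both without overlap. Myeloid markers lay at 659 to 829 CPM in sham and 775 to 1199 CPM in SBP and overlapped. The part of these marker levels in the gene groups described next was not tested.

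Matrix genes of activated fibroblasts remained high in SBP. Tnc encodes tenascin-C, a matricellular protein that appears in injured tissue, and was 2.99, 3.95 and 0.752 CPM in the 3 sham mice, 144, 121 and 87.6 CPM in I/R and 110.4, 165 and 177 CPM in SBP. The 3 SBP values stood far above all sham values (log2 fold change 5.51, SE 0.36, adjusted p 0.000303). Postn (periostin) was 12.9, 23.1 and 8.02 CPM in sham and 62.6, 119 and 85.2 CPM in SBP (log2 fold change 2.59, SE 0.46, adjusted p 0.0246). Timp1, an inhibitor of matrix metalloproteinases, was 1.44, 0.934 and 1.88 CPM and 37.8, 30.5 and 40.7 CPM (log2 fold change 3.96, SE 0.34, adjusted p 0.00103). In all of these genes the SBP mice stood clear of the sham mice. Cthrc1, a secreted protein of activated fibroblasts, rose as well, from 0.597 ± 0.606 to 15.8 ± 2.82 CPM (log2 fold change 3.44, SE 0.39, adjusted p 0.00362).

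Of 26 genes of the list of matricellular and fibroblast activation genes, 10 rose, 0 fell and 16 did not pass, where 1.57% of all genes rose. The list median log2 fold change was 1.17 against −0.01 over all genes. The other members that rose were Spp1, Thbs1 (thrombospondin-1), Sparc, Ccn4, Fn1 (fibronectin) and Lox, which crosslinks collagen. The median of the list in I/R against sham was 0.96. Not every gene of scar formation was past the test. Acta2, the smooth muscle actin of myofibroblasts, was 5.25, 10.9 and 11.9 CPM in sham and 14.7, 18.1 and 8.51 CPM in SBP, with overlapping values (log2 fold change 0.52, SE 0.36, adjusted p 0.437). Vcan (versican) was 119.9, 43.2 and 64.9 CPM and 123, 116 and 102 CPM (log2 fold change 0.70, SE 0.46, adjusted p 0.404).

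Among 17 collagens, 6 rose, 0 fell and 11 did not pass (median log2 fold change 0.89, and 0.84 in I/R against sham), where 1.57% of all genes rose. Col1a1, a chain of the fibrillar collagen type I, was 15.3, 19.8 and 21.5 CPM in sham, 318, 226 and 118 CPM in I/R and 135, 175 and 113 CPM in SBP. The SBP values did not overlap those of sham (log2 fold change 2.83, SE 0.32, adjusted p 0.00362). Col3a1, which forms type III collagen, was 73.7, 101 and 82.8 CPM in sham and 412, 622 and 413 CPM in SBP (log2 fold change 2.46, SE 0.31, adjusted p 0.00614). Col1a2 (log2 fold change 1.93, adjusted p 0.0112), Col5a2, Col5a3 and Col12a1 (3.03, adjusted p 0.000769) were the others. Col12a1 had the largest fold change of the 6, from a low level of 1.21 ± 0.467 CPM in sham to 16.8 ± 2.24 CPM in SBP.

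**Figure D1:**
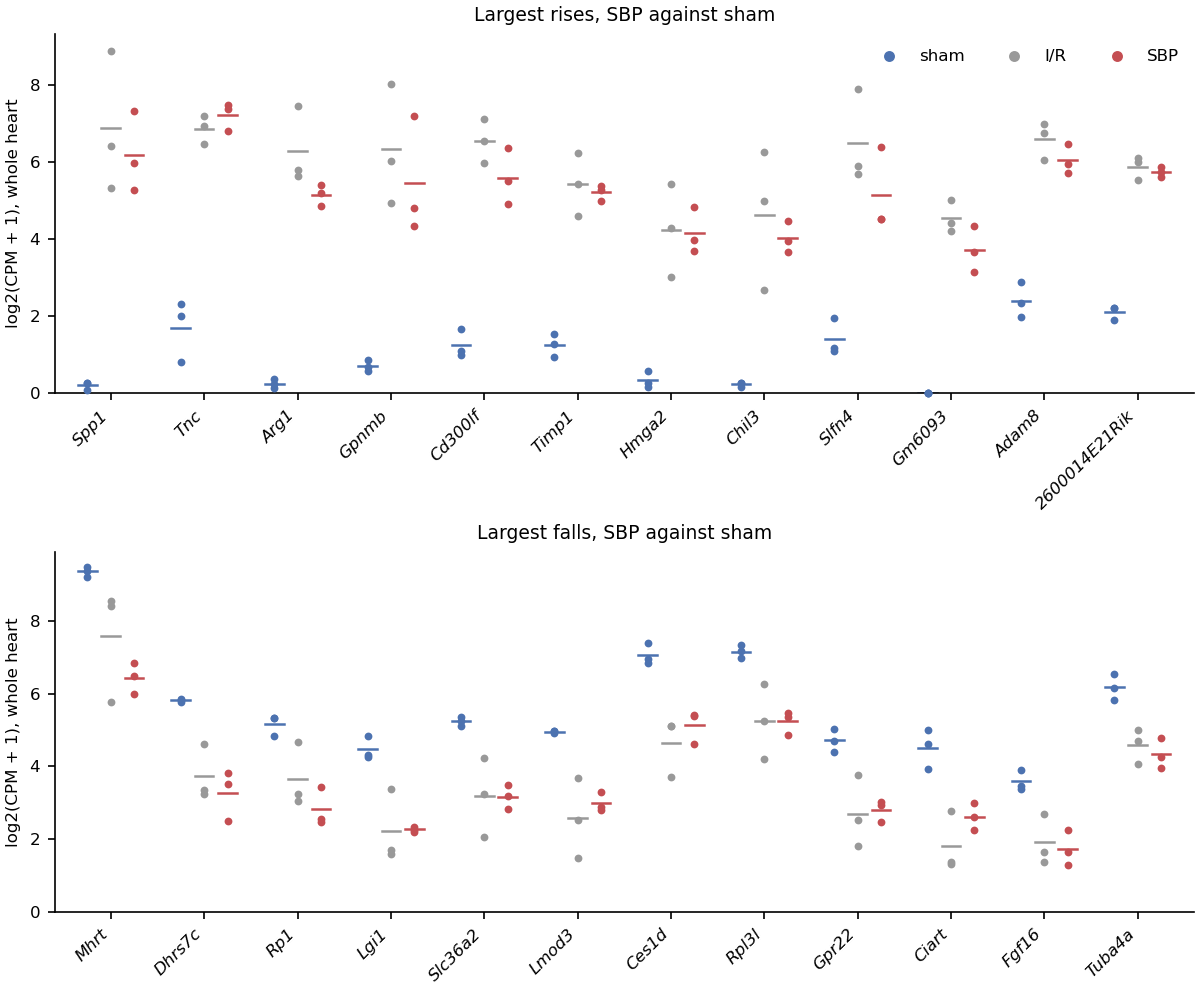
Levels of the 12 genes with the largest rise and the 12 with the largest fall among called genes without overlap of SBP and sham and with a mean of at least 10 CPM in either group, as log2(CPM + 1) on the vertical axis, with 1 point per mouse for sham, I/R and SBP and a bar at the mean of 3 mice. Spp1 and Tnc rose most and Mhrt fell most.

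The list of macrophage genes of injured tissue held the most rises of all lists (11 of 25 genes, where 1.57% of all genes rose). Spp1 (osteopontin) was 0.206, 0.216 and 0.0626 CPM in sham, with 6 UMIs in the 3 libraries together, 468, 39.1 and 84.4 CPM in I/R and 37.7, 158 and 62.1 CPM in SBP. Pooled over mice the SBP level was 610 times that of sham (counting interval at 95% of 280.2 to 1664, for counting error only), and in limma the log2 fold change was 5.97 (SE 0.78, adjusted p 0.00753). The SBP mice differed widely among themselves, with SBP replicate 2 highest and replicate 1 lowest. Arg1 (arginase 1), which breaks down arginine in macrophages, was 0.103, 0.287 and 0.188 CPM in sham, 48.5, 174 and 54.1 CPM in I/R and 41, 35.2 and 28.1 CPM in SBP (log2 fold change 4.89, SE 0.40, adjusted p 0.000769). Its pooled ratio to sham was 172 (87.1 to 399), with 8 UMIs in sham. Gpnmb, a lysosomal glycoprotein of lipid-loaded macrophages, was 0.618, 0.503 and 0.814 CPM in sham and 19.3, 145 and 26.7 CPM in SBP, again highest in SBP replicate 2 (log2 fold change 4.73, SE 0.82, adjusted p 0.0219). Chil3, a chitinase-like protein of alternatively activated macrophages, was 0.206, 0.216 and 0.125 CPM and 14.4, 21.1 and 11.6 CPM (pooled ratio 91.6, counting interval 44.2 to 229, adjusted p 0.0294).

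Of 25 injury macrophage genes, 11 rose, 0 fell and 14 did not pass, where 1.57% of all genes rose. The list median log2 fold change was 1.41 in SBP and 1.83 in I/R, each against sham. Lgals3 (galectin-3), Ctsl (cathepsin L), Mmp14, Pdpn, Fn1 and Plin2 were the other members that rose, beside Hmox1. Hmox1, the enzyme that degrades heme, was 1.65, 2.66 and 2.57 CPM in sham, 113, 42.4 and 34.5 CPM in I/R and 24.2, 23.2 and 22.8 CPM in SBP. The 3 SBP values lay close together, clear of sham and below the 3 I/R values (log2 fold change 2.90, SE 0.36, adjusted p 0.00614 against sham, not called against I/R). Of 20 genes of resident macrophages 0 were called, where 3.28% of all genes were, 5 lay above and 6 below sham without overlap (15.1% and 17.8% of all genes), and their median log2 fold change was 0.14, against 0.65 in I/R. F13a1, a coagulation factor subunit made by resident macrophages, was 463, 334 and 531 CPM in sham and 649, 607 and 651 CPM in SBP (log2 fold change 0.55, SE 0.26, adjusted p 0.244).

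Adam8, Cd300lf, Slfn4 and Plaur rose as single genes, while 0 of 10 myeloid markers were called (3.28% of all genes were). Adam8, a membrane metalloprotease, was 6.38, 2.95 and 4.07 CPM in sham and 61, 87.8 and 51.2 CPM in SBP (log2 fold change 3.64, SE 0.30, adjusted p 0.000769). Cd300lf, an inhibitory receptor, was 2.16, 1.15 and 1 CPM and 44.6, 80.9 and 28.7 CPM (log2 fold change 4.33, SE 0.38, adjusted p 0.00103), and Slfn4 was 2.88, 1.15 and 1.25 CPM and 21.9, 81.9 and 21.8 CPM (log2 fold change 3.72, SE 0.63, adjusted p 0.0214). The 3 SBP mice exceeded the 3 sham mice in each of them. Plaur, the receptor of urokinase, rose from 6.88 ± 1.5 to 24.4 ± 6.57 CPM (log2 fold change 1.67, SE 0.37, adjusted p 0.0441). Of 23 neutrophil and acute phase genes, 19 passed the filter on low values. Among the 19, 4 rose and 0 fell (median log2 fold change 1.38, and 2.30 in I/R), where 1.57% of all genes rose. The 4 were Csf3r, the receptor of granulocyte colony stimulating factor (11.9, 9.63 and 12.7 CPM in sham, 59.5, 65.5 and 38.3 CPM in SBP, log2 fold change 2.13, adjusted p 0.00617), Cxcr2, Mmp9 and Il1r2. Saa3, an acute phase protein, did not pass. Its level was 0.206, 0 and 0.251 CPM in sham and 1.88, 5.46 and 0.946 CPM in SBP, and 529 CPM in 1 I/R mouse (adjusted p 0.594 for SBP against sham).

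Of 29 chemokine and cytokine genes tested, 4 rose and 0 fell, where 1.57% of all genes rose. The 4 were the chemokines Ccl6, Ccl9 and Cxcl5 and the chemokine receptor Ccr1, and the list median was 0.83 (1.13 in I/R). Cxcl5, which attracts neutrophils, was 1.24, 1.87 and 1.88 CPM in sham and 19.5, 22.53 and 16.4 CPM in SBP (log2 fold change 2.94, SE 0.26, adjusted p 0.00105). Ccl6 was 16.3, 7.97 and 14.8 CPM and 52.5, 62.4 and 49.8 CPM (log2 fold change 2.04, SE 0.25, adjusted p 0.00549). Neither gene overlapped between the groups. None of 23 interferon-stimulated genes was called (median −0.09), and none of 9 MHC class II genes, where 3.28% of all genes were. Of the MHC class II genes 6 lay below sham without overlap (17.8% of all genes did so), and the list median was −1.03 in SBP and −1.33 in I/R. Cd74, the invariant chain of MHC class II, was 59.2, 80.03 and 80.4 CPM in sham and 19.1, 35.7 and 26 CPM in SBP (log2 fold change −1.44, SE 0.48, adjusted p 0.123), and all SBP values were below those of sham. Among 15 B cell genes 1, the immunoglobulin chain Igkc, fell (log2 fold change −1.14), where 1.71% of all genes did. Of the 15, 9 lay below sham without overlap (17.8% of all genes did so), and the list median was −0.80. Among 15 T cell genes 0 were called, and among 18 complement genes 0, where 3.28% of all genes were. Of the complement genes 6 lay above and 0 below sham without overlap (15.1% and 17.8% of all genes).

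A pair of long intergenic non-coding RNAs stood among the largest rises. 2600014E21Rik (chr2:75138843-75317820, plus strand, in GENCODE coordinates of GRCm38) was 3.6, 3.66 and 2.76 CPM in sham, 45.1, 63 and 67.7 CPM in I/R and 56.9, 47.8 and 52 CPM in SBP. The SBP values lay close together and far above sham, and the gene had the smallest adjusted p of all genes tested (log2 fold change 3.62, SE 0.17, adjusted p 2.47e-05). It overlaps Gm13653 on the same strand. Gm6093 (chr13:33562486-33569317, minus strand) had 0 UMIs in each of the 3 sham libraries, and 20.2, 31.1 and 17.6 CPM in I/R and 19.3, 11.6 and 7.79 CPM in SBP, the latter from 567 UMIs. Against a floor of 3 UMIs over the sham group its level was at least 168-fold higher in SBP, or at least 100.1-fold with the mouse left out that lowered the bound most (adjusted p 0.000769). It overlaps Gm25043 and Gm47916 on the other strand.

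Of 39 genes of DNA replication and mitosis, 5 rose, 0 fell and 34 did not pass, where 1.57% of all genes rose. Of the 39, 29 lay above sham without overlap (15.1% of all genes did so). The list median log2 fold change was 0.98, and 1.25 in I/R. Diaph3, a formin needed in cytokinesis, was 6.8, 13.6 and 6.95 CPM in sham and 55.1, 86.1 and 36.2 CPM in SBP (log2 fold change 2.55, SE 0.43, adjusted p 0.0202). Prc1, which organises the spindle midzone, was 1.85, 3.02 and 1.57 CPM and 9.41, 12.52 and 6.26 CPM (log2 fold change 1.71, SE 0.33, adjusted p 0.0319). Cdk1, the kinase that drives entry into mitosis, Kif15 and Tpx2 were the other members called. Hmga2, a chromatin protein that is mostly silent in adult tissue, rose from 0.278 ± 0.199 to 18 ± 8.23 CPM (log2 fold change 3.82, SE 0.52, adjusted p 0.00934).

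In cardiomyocyte genes the largest fall of a gene with at least 10 CPM was that of Mhrt, a long non-coding RNA of the myosin locus (chr14:54968678-54974349, plus strand) that overlaps Myh7 on the other strand. Mhrt was 674, 594 and 723 CPM in sham, 379, 54.1 and 342 CPM in I/R and 63.4, 114 and 88.9 CPM in SBP. The 3 SBP values lay far below all sham values (log2 fold change −2.92, SE 0.61, adjusted p 0.0392). Myh7, the fetal myosin heavy chain (chr14:54970684-54994626, minus strand), was 249.2, 56.5 and 147 CPM in sham, 37.2, 491 and 72 CPM in I/R and 1039.5, 849 and 752 CPM in SBP. The 3 SBP values stood above all other libraries, and the gene was not called against sham (log2 fold change 2.76, SE 0.82, adjusted p 0.091) or against I/R. Against sham it was called by limma in 3 of 21 alternatives, namely on only the 6 samples compared (adjusted p 0.0103, the lowest) and without I/R replicate 1 or 2. Myh6, the adult myosin heavy chain, was 6719.6, 6081 and 7718 CPM in sham and 1561, 2732 and 2785 CPM in SBP, lower in every SBP mouse and not called (log2 fold change −1.58, SE 0.50, adjusted p 0.107). Whether the authors counted reads by strand is not given in the sources used here, so that reads of Mhrt and Myh7 may not be fully separated.

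Of 23 sarcomere genes tested, 8 fell, 0 rose and 15 did not pass (median log2 fold change −0.52, and −0.71 in I/R), where 1.71% of all genes fell. Myl2, the ventricular regulatory light chain, was 1395, 1923 and 1684 CPM in sham and 544, 669 and 775 CPM in SBP (log2 fold change −1.33, SE 0.22, adjusted p 0.0175). Tnni3 (cardiac troponin I) was 798, 947 and 816 CPM and 344, 345 and 324 CPM (log2 fold change −1.33, SE 0.19, adjusted p 0.0112). In both genes every SBP mouse lay below every sham mouse. Ttn, Mybpc3, Tnnc1, Tcap and Tmod1 were the other members that fell, together with Mhrt. Tnnt2 (troponin T) was 2731, 2283 and 2859 CPM in sham and 2294, 1735 and 1583 CPM in SBP, with overlap (log2 fold change −0.50, SE 0.17, adjusted p 0.135).

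Of 27 genes of calcium handling and ion channels, 2 fell and 0 rose, where 1.71% of all genes fell. Of the 27, 22 lay below sham without overlap (17.8% of all genes did so), with a list median of −0.68 (−0.74 in I/R). Ryr2, the calcium release channel, was 9211, 5704 and 8744 CPM in sham and 3774, 3952 and 3932 CPM in SBP (log2 fold change −0.99, SE 0.22, adjusted p 0.0466). Kcnh2, a potassium channel of repolarisation, was 40.2, 24.8 and 38.6 CPM and 10.9, 15.2 and 11.1 CPM (log2 fold change −1.39, SE 0.23, adjusted p 0.02). Dhrs7c, a reductase of the sarcoplasmic reticulum, was 53.5, 56.8 and 56.3 CPM in sham and 4.67, 13.1 and 10.5 CPM in SBP (log2 fold change −2.54, SE 0.40, adjusted p 0.0156). Lmod3, which nucleates thin filaments, had 29.8 ± 0.627 CPM in sham and 7.01 ± 1.53 CPM in SBP (log2 fold change −1.96, SE 0.44, adjusted p 0.0446), and Rpl3l, the muscle form of a ribosomal protein, 143 ± 17.2 and 37.4 ± 8.03 CPM (log2 fold change −1.92, SE 0.41, adjusted p 0.0418).

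Of 38 nuclear genes of the respiratory chain, 10 fell, 0 rose and 28 did not pass, where 1.71% of all genes fell. Of the 38, 36 lay below sham without overlap (17.8% of all genes did so), with a list median of −0.76 (−0.77 in I/R). Cox7a1, a subunit of cytochrome c oxidase, was 75.2, 141 and 108 CPM in sham and 45.5, 37.3 and 34.4 CPM in SBP (log2 fold change −1.41, SE 0.30, adjusted p 0.0408). Cycs (cytochrome c) was 60.7, 76.8 and 69.3 CPM and 20.5, 30.5 and 26.7 CPM (log2 fold change −1.39, SE 0.32, adjusted p 0.0498). The others were Cox5a, Cox5b, Ndufa2, Ndufb8, Ndufb9, Uqcrc1, Cyc1 and Atp5g1. All 10 lost their call without TMM factors, without the filter on low values, and whenever 1 sham or SBP mouse was left out. Of 23 genes of glycolysis and glucose uptake, 4 fell, 0 rose and 19 did not pass (median −0.37, and −0.17 in I/R), where 1.71% of all genes fell. Pgam2, the muscle phosphoglycerate mutase, was 77.3, 108 and 91.5 CPM in sham and 33.4, 35.8 and 28.9 CPM in SBP (log2 fold change −1.46, SE 0.16, adjusted p 0.00362), and Eno3, the muscle enolase, was 81.9, 124 and 119.7 CPM and 27.2, 38.7 and 26.8 CPM (log2 fold change −1.77, SE 0.30, adjusted p 0.0214). Pfkm and Tpi1 fell as well. Of 31 fatty acid oxidation genes 1, the carboxylesterase Ces1d, was called, lower in SBP (−1.93, adjusted p 0.0335), a share like the 3.28% of all genes. The summed cardiomyocyte markers were also lower in SBP, as given above, and their part in these values was not tested.

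Stress genes of cardiomyocytes were less uniform. Of 23 members, 1, Synpo2l, fell and 0 rose, where 1.71% of all genes fell, and the list median was 0.20. Actc1, the cardiac actin, was 262, 516 and 367 CPM in sham and 146, 195 and 164 CPM in SBP, lower without overlap and not called (log2 fold change −1.13, SE 0.43, adjusted p 0.163). In all, 4 members lay below sham without overlap and 6 above (17.8% and 15.1% of all genes). Ankrd1, a stretch-responsive nuclear protein, was 122, 90.4 and 184 CPM in sham and 892, 404 and 294 CPM in SBP, without overlap and not called (log2 fold change 1.89, SE 0.53, adjusted p 0.0785). Nppb, which encodes the natriuretic peptide BNP, was 16.6, 8.4 and 34.3 CPM and 62.4, 45.1 and 46.3 CPM (log2 fold change 1.52, SE 0.44, adjusted p 0.0835). Pdk4, a kinase that shuts off glucose oxidation and a member of the glucocorticoid-responsive and fatty acid oxidation lists, was 43.1, 160.3 and 75.3 CPM and 688, 201 and 197 CPM, also without overlap (log2 fold change 1.89, SE 0.59, adjusted p 0.103).

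A few genes of the molecular clock were called between SBP and sham, 2 of 13 outputs and 2 of 15 core genes (3.28% of all genes were). Dbp, an output transcription factor, was 69.5, 132 and 73.5 CPM in sham, 4.99, 5.16 and 9.46 CPM in I/R and 18.9, 35.9 and 28.8 CPM in SBP. The SBP values lay between those of the other groups (log2 fold change −1.66, SE 0.32, adjusted p 0.0319 against sham). Between SBP and I/R 0 genes were called, and the share of all genes without overlap between these groups is not given here. Ciart, a repressor of the clock, was 23.4, 14.2 and 30.9 CPM in sham, 1.49, 1.58 and 5.78 CPM in I/R and 5.12, 7 and 3.71 CPM in SBP (log2 fold change −1.89, SE 0.41, adjusted p 0.0426). Tef, a factor of the same family as Dbp, was 277, 274 and 286 CPM in sham and 129, 150.4 and 163 CPM in SBP, lower in every mouse and not called (log2 fold change −0.92, SE 0.25, adjusted p 0.0723). Of the 13 clock output genes 2 fell (Dbp and Ciart), 0 rose and 11 did not pass, where 1.71% of all genes fell. Of the 13, 8 lay below sham without overlap (17.8% of all genes did so), and the list median was −0.59 (−1.03 in I/R).

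Among the 15 core clock genes 2 rose, the activators Arntl and Clock, 0 fell and 13 did not pass (median −0.06), where 1.57% of all genes rose. Arntl was 11.4, 11.4 and 14.8 CPM in sham, 125, 94.4 and 82.7 CPM in I/R and 51.3, 40 and 67.5 CPM in SBP, with SBP between the other groups (log2 fold change 1.97, SE 0.21, adjusted p 0.00336 against sham, not called against I/R). Its partner Clock was 102, 96.3 and 109 CPM in sham, 208, 201 and 195 CPM in I/R and 172, 157 and 177 CPM in SBP (log2 fold change 0.72, SE 0.11, adjusted p 0.0145). The repressor Nr1d2 was 266, 264 and 242 CPM in sham and 117, 154 and 156 CPM in SBP, lower without overlap and not called (log2 fold change −0.86, SE 0.33, adjusted p 0.163). The time of day at which each heart was taken is not given in the sources used here, and its part in these levels was not tested.

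The promoters of Ciart and Tef are shown since the heterodimer of Clock and Arntl binds the E-box CACGTG, and that of Plaur since it holds the AP-1 motif. Each window is the 250 bases before the annotated start, from RefSeq on GRCm38.p6, written 5′ to 3′ on the strand of the gene, with the motif in capitals. The window of Ciart is chr3:95882229-95882478 on the minus strand, that of Tef chr15:81802423-81802672 on the plus strand, and that of Plaur chr7:24462233-24462482 on the plus strand.
Ciart: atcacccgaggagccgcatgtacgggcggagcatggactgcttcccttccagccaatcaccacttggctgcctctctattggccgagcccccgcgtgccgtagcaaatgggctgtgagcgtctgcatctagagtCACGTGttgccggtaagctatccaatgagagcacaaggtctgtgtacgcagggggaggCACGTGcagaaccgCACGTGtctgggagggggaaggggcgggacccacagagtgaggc
Tef: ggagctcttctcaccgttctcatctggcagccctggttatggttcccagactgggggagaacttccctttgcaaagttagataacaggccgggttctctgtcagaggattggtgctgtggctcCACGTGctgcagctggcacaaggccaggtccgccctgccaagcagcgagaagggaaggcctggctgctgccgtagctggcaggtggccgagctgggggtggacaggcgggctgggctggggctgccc
Plaur: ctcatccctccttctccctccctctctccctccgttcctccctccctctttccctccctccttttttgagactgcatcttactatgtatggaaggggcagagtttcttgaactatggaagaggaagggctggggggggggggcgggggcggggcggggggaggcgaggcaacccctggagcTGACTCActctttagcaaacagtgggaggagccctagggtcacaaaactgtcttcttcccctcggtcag
The Ciart window holds 3 E-boxes, the first 116 bases before the start. The Tef window shown holds 1, 127 bases before the start. RefSeq gives Tef a second start, whose window (chr15:81811164-81811413) also holds 1, 138 bases before it, and the windows of Dbp and Arntl hold none. Both strands were searched, and CACGTG reads the same on both. It was present in a window of 5.93% of all 27025 genes with a promoter, of 7.94% of the 12060 genes tested that had one, of 7.33% of the genes called higher (14 of 191) and of 6.05% of those called lower (13 of 215). Of 11 clock output genes with a window, 4 held it (Bhlhe41, Ciart, Coq10b and Tef), and of 11 core clock genes 2 (Cry1 and Per1). The AP-1 motif TGANTCA, where N is any base, was found 69 bases before the start of Plaur. It was present in 6.87% of all 27025 genes, in 4.71% of the genes tested, in 7.85% of those called higher (15 of 191) and in 3.72% of those called lower (8 of 215). A match is a run of letters, and binding was not measured.

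**Figure D2:**
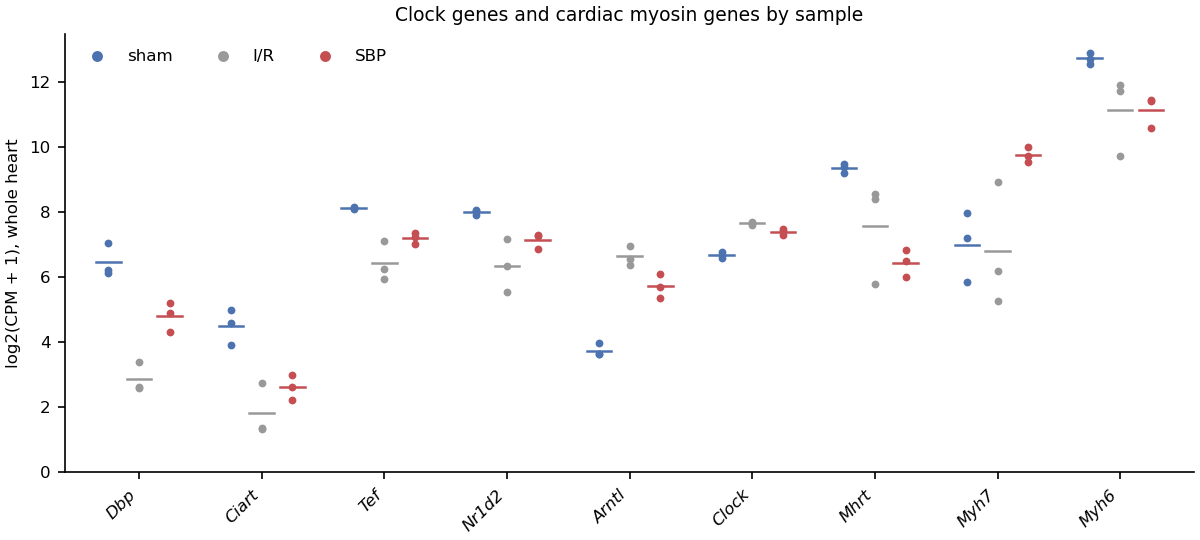
Levels of clock genes (Dbp, Ciart, Tef, Nr1d2, Arntl and Clock) and of the myosin locus (Mhrt, Myh7 and Myh6) in CPM on a log axis, with 1 point per mouse for sham, I/R and SBP and a bar at the group mean. Dbp in SBP lay between I/R and sham, and Myh7 in SBP (752 CPM and above) was higher than in all libraries of the other groups. Between SBP and I/R 0 genes were called.

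Of the remaining lists, 1 of 23 AP-1 and immediate early genes rose (1.57% of all genes did so). This was Atf3, a stress-induced factor, with 1.65, 2.73 and 3.51 CPM in sham and 13.7, 15.2 and 7.5 CPM in SBP (log2 fold change 1.84, SE 0.29, adjusted p 0.0155). The list median was 1.03, and 12 members lay above sham without overlap (15.1% of all genes did so). Of 25 hypoxia, heme and antioxidant genes 2 rose, where 1.57% of all genes did. The 2 were Hmox1 and the ferritin light chain Ftl1, which was 42.4, 48.5 and 56.5 CPM in sham and 96.5, 127 and 94.8 CPM in SBP (log2 fold change 1.09, SE 0.21, adjusted p 0.0306). Vegfa was 556, 427 and 371 CPM and 213, 243 and 332 CPM, lower in every SBP mouse and not called (log2 fold change −0.78, SE 0.21, adjusted p 0.0697), while in the angiogenesis list the endothelin receptor Ednrb rose and Vegfb fell. None of 19 glucocorticoid-responsive genes was called (median −0.03), where 3.28% of all genes were. Of the 19, 4 lay above and 1 below sham without overlap (15.1% and 17.8% of all genes). Zbtb16 of the glucocorticoid-responsive list was 3219, 443 and 2254 CPM in sham, where the second mouse stood far below the others, and 1106, 653 and 685 CPM in SBP. Of 19 p53 targets 2 rose (Gtse1 and the non-coding RNA Pvt1) and 1 fell (Ccng1), of 21 chaperone genes 1 fell (Fkbp4), and of 30 IGF and growth factor genes 1 fell (Pdgfd), where 1.57% of all genes rose and 1.71% fell. A list of 26 genes was taken from the study, which names further genes, among them Col3a1, Fn1 and Gpnmb, given above as called. The study chose these genes on the same samples, which is not independent evidence of their direction. It describes them largely for SBP against I/R within cell types, whereas here SBP was set against sham in whole-heart sums. Directions stated there and here are thus of different contrasts. Of the 26, Postn, Vim, Spp1 and Plaur rose, Mhrt fell and 21 did not pass, where 1.57% of all genes rose and 1.71% fell.

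**Figure D3:**
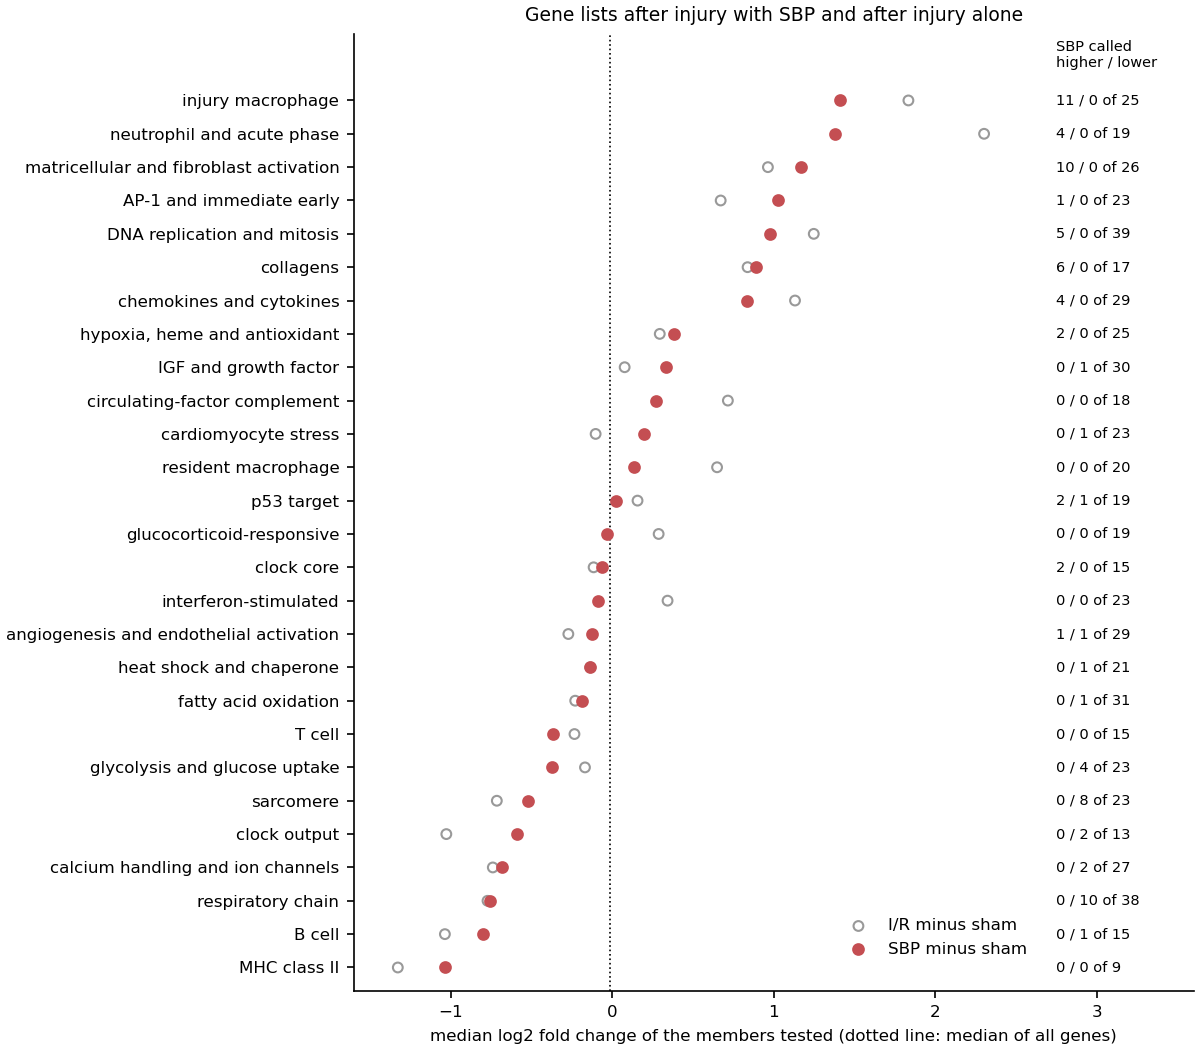
Median log2 fold change of each gene list for SBP against sham and for I/R against sham, with the number of members called higher and lower beside each list. The largest medians for SBP were those of injury macrophage (1.41), neutrophil and acute phase (1.38) and matricellular genes (1.17), and the lowest was that of MHC class II (−1.03).

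To see in which nuclei these levels lay, each nucleus was placed in the class whose markers had the highest mean value, with every marker scaled over all nuclei. This scaling was chosen after seeing the data, because the unscaled rule placed 57.0% to 65.3% of the sham nuclei in the cardiomyocyte class. A class is thus a range of a score and not a cell type, and genes such as Ryr2, Myh6, Col1a1 and Col1a2 served as markers. The margin over the next class was below 0.1 SD for 0.702% to 4.28% of the nuclei of the cardiomyocyte class, 2.88% to 5.07% of the endothelial class, 3.80% to 9.30% of the myeloid class and 6.44% to 13.6% of the fibroblast class. It was so for 10.9% to 21.7% of the neutrophil class, 5.88% to 19.4% of the B cell class and 12.3% to 19.2% of the smooth muscle and pericyte class. Cardiomyocyte-marker nuclei were 27.6% to 30.8% of the nuclei in sham and 17.9% to 19.5% in SBP. Fibroblast-marker nuclei were 15.8% to 19.4% and 20.6% to 28.8%, neutrophil-marker nuclei 0.591% to 2.14% and 2.97% to 7.40%, and B cell-marker nuclei 2.91% to 4.71% and 1.2% to 2.09%, in each case without overlap. Smooth muscle and pericyte-marker nuclei were 5.59% to 6.79% and 3.57% to 4.64%, also without overlap. Myeloid-marker (6.58% to 11.6% and 10.0% to 22.7%) and endothelial-marker nuclei (22.5% to 26.3% and 18.9% to 28.1%) overlapped. Whether groups overlapped depended on the rule for some classes. Under the unscaled rule, endothelial-marker nuclei were 13.9% to 14.8% in sham and 19.6% to 27.9% in SBP and myeloid-marker nuclei 2.74% to 5.75% and 8.15% to 18.3%, both without overlap. B cell-marker nuclei (0.415% to 0.828% and 0.296% to 0.546%) and smooth muscle and pericyte-marker nuclei (0.0676% to 0.199% and 0.138% to 0.176%) then overlapped. Cardiomyocyte-marker nuclei were 26.9% to 32.4% of SBP nuclei under that rule, again below sham, and fibroblast-marker nuclei 16.7% to 21.6% in sham and 26.6% to 36.6% in SBP. Neutrophil-marker nuclei were then 0% to 0.0656% in sham, at most 3 nuclei per library, and 0.429% to 0.616% in SBP. Levels inside classes are described without a test.

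Several genes of the injury response had most of their UMIs in 1 class. In fibroblast-marker nuclei Tnc was 2.1, 3.45 and 2.28 CPM in sham and 281, 669.6 and 435 CPM in SBP, and 63.5% of the Tnc UMIs of SBP were there. 2600014E21Rik was 9.09, 9.2 and 12.8 CPM and 203, 193 and 173 CPM in the same class, with 74.7% of its UMIs, and Gm6093 had 60.3%. Both RNAs thus lay mainly in fibroblast-marker nuclei. Arg1 had 0 UMIs in the myeloid-marker nuclei of each sham mouse and was 289.9, 157 and 215 CPM there in SBP, with 62.4% of its UMIs. For Gpnmb and Adam8 the share of UMIs in the myeloid class was 68.6% and 69.4%, but for Spp1 it was 40.1%. Spp1 was 35.5, 179 and 57.2 CPM in endothelial-marker nuclei of SBP, near its sums over all nuclei given above. Injury macrophage genes had a median log2 difference of 1.19 in the cardiomyocyte class (14 of 21 above sham without overlap, 1 below, where 10.8% and 12.3% of all genes lay so). In the endothelial class it was 1.04 (13 above and 0 below of 21, where 10.5% and 11.8% lay so), and in the myeloid class 2.48. The part of transcripts outside their own nuclei in these levels was not tested. Cell cycle genes differed most in the fibroblast class, where all 39 members of the list lay above sham without overlap (14.5% of 12473 genes did so) with a median log2 difference of 2.26, against 0.08 over 32 members in the myeloid class. A gene was kept in a class if at least 3 of the 9 libraries reached the filter. Members low in sham could thus enter through the injured libraries alone, so that the count of 39 is a description and no support. Diaph3 was 4.9, 11.5 and 7.29 CPM in sham and 143, 255 and 89.6 CPM in SBP in fibroblast-marker nuclei.

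Levels of sarcomere genes inside the cardiomyocyte class are bound to how the class was made. Ttn, Myh6, Actn2, Tnnt2, Mybpc3 and Myom1 are both members of the list and markers of the class, so that nuclei were placed there for high levels of them, and the value inside that class cannot be set against the others as a place of change. In cardiomyocyte-marker nuclei the median log2 difference of 23 sarcomere genes was 0.08, with 5 above and 8 below sham without overlap (10.8% and 12.3% of 13103 genes). In the fibroblast class it was −1.10, with 18 of 22 below sham (11.6% of genes). In the endothelial class it was −0.88, with 17 of 21 below (11.8% of 11735 genes), and in the myeloid class −1.26, with 18 of 21 below (13.5% of 10349 genes). Myl2 differed by −0.70 in the cardiomyocyte class and by −1.54, −1.76 and −1.73 in the endothelial, fibroblast and myeloid classes. Tnni3, like Myl2 no marker of a class, differed by −0.76 in the cardiomyocyte class and by −1.50, −1.61 and −1.56 in the others. The median share of cardiomyocyte markers among the UMIs of an endothelial-marker nucleus was 0.779% to 0.917% in sham and 0.257% to 0.347% in SBP, and of a myeloid-marker nucleus 0.619% to 0.768% and 0.181% to 0.258%. In cardiomyocyte-marker nuclei it was 5.75% to 6.79% and 4.35% to 5.03%. The part of transcripts outside their own nuclei in the whole-heart values was not tested.

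Other cardiomyocyte differences were present inside the cardiomyocyte class. Mhrt was 1164, 1044 and 1129 CPM there in sham and 157, 296 and 230.4 CPM in SBP, while Myh7 was 358, 91.6 and 201 CPM and 2438, 1912 and 1784 CPM. Dhrs7c was 84.9, 88.4 and 80.3 CPM and 10.9, 31.7 and 23.1 CPM. None of these overlapped between the groups. Ankrd1 (log2 difference 2.59), Nppb (2.36) and Pdk4 (2.54) were higher without overlap in this class. Calcium handling and ion channel genes, of which Ryr2 and Pln are markers of the class, had a median of −0.12 there. Of these 26 genes, 3 lay below and 1 above sham without overlap (12.3% and 10.8% of all genes). In the endothelial, fibroblast and myeloid classes the medians of this list were −0.88, −0.90 and −1.37. Respiratory chain genes had medians below 0 in each of the 4 classes. The median was −0.44 in the cardiomyocyte class, with 24 of 38 below sham without overlap (12.3% of all genes), and −0.65 in the endothelial class, with 29 of 38 (11.8%). It was −0.70 in the fibroblast class, with 31 of 38 (11.6%), and −0.69 in the myeloid class, with 26 of 38 (13.5%). The median share of cardiomyocyte markers in endothelial- and myeloid-marker nuclei was also lower in SBP, as given above. In fibroblast-marker nuclei this share was 0.495% to 0.638% in sham and 0.186% to 0.242% in SBP. Its part in the calcium handling and respiratory chain values was not tested. The clock genes Dbp and Arntl differed in the same direction in each class. Dbp differed by −2.42, −1.01, −1.21 and −2.02 in the cardiomyocyte, endothelial, fibroblast and myeloid classes, and Arntl by 1.99, 1.70, 2.03 and 2.17, all without overlap.

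Of the 252 genes called higher in the whole-heart sums, 229 could be measured in fibroblast-marker nuclei and 198 of them lay above sham without overlap there. The numbers were 142 of 183 in the myeloid class (19.5% of all genes lay above), 117 of 170 in the endothelial class (10.5%) and 101 of 178 in the cardiomyocyte class (10.8%), against 14.5% of all genes in the fibroblast class. Of the 275 genes called lower, 203 of 260 lay below sham in the cardiomyocyte class (12.3% of all genes did), 161 of 217 in the endothelial (11.8%), 154 of 222 in the fibroblast (11.6%) and 123 of 160 in the myeloid class (13.5%). These nuclei are part of the whole-heart sums that chose the genes, so that the counts are a description.

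**Figure D4:**
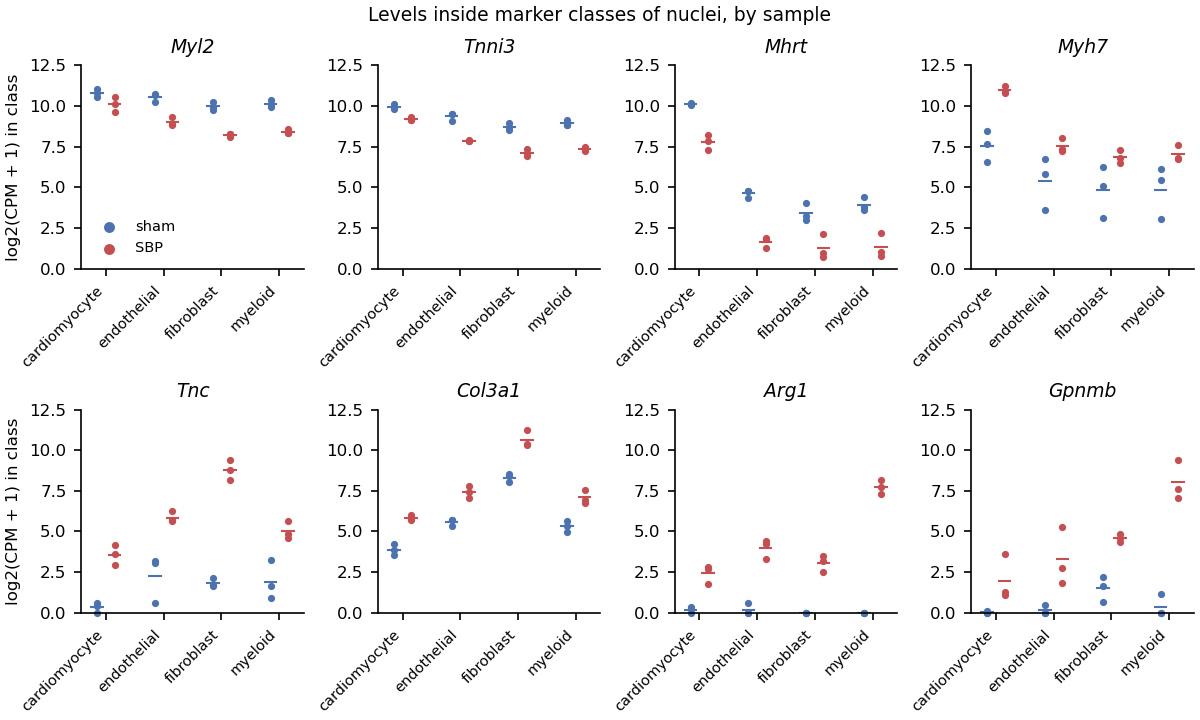
Levels of Myl2, Tnni3, Mhrt, Myh7, Tnc, Col3a1, Arg1 and Gpnmb in the cardiomyocyte, endothelial, fibroblast and myeloid marker classes, as log2(CPM + 1), with 1 point per mouse for sham and SBP. Tnc and Col3a1 reached their highest level in the fibroblast class, Arg1 and Gpnmb in the myeloid class, and Myl2 and Tnni3 were lower in SBP in all of them.

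Between SBP and I/R, which share the injury, limma called 0 genes (0%; smallest adjusted p 0.999), with 0 higher and 0 lower, and 717 genes (4.46%) had an unadjusted p under 0.05. Differences of single genes therefore stand here as values only. Dbp differed by 1.94 between SBP and I/R (unadjusted limma p 0.000127), Arntl by −0.92 (p 0.0016), Myh7 by 2.97 (p 0.00483), Hmox1 by −1.20 (p 0.0082) and Arg1 by −1.14 (p 0.0183). For Tnc the difference was 0.36 (p 0.342), for Col1a1 −0.55 (p 0.114) and for Spp1 −0.68 (p 0.402). Set against sham, Tnc stood at 5.51 in SBP and 5.15 in I/R, Col1a1 at 2.83 and 3.38, Hmox1 at 2.90 and 4.10, Dbp at −1.66 and −3.61, and Pgam2 at −1.46 and −1.64. These contrasts share the sham mice.

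The number of calls depended on single mice. Without sham replicate 1, 2 or 3 it was 92, 288 and 42, and without SBP replicate 1, 2 or 3 it was 64, 109 and 103. Without I/R replicate 1, 2 or 3, which enter this contrast through the common spread, it was 1051, 845 and 962. All 527 genes kept their sign under each of the 21 alternatives that tested them. Of these, 39 were called under all 21, 34 higher and 5 lower, and are named here after their values were seen. They include Tnc, Arg1, Timp1, Cthrc1, Col1a1, Col3a1, Col12a1, Lox, Adam8, Adam12, Ltbp2, Hmox1, Csf3r, Ccl6, Ccl9, Cxcl5, Arntl, Gm6093 and 2600014E21Rik among the rises. The 5 falls were Ccnd1, Hunk, Pgam2, Ptges3l and Mlf1. Many genes described above were called in only part of the alternatives. Of the cell cycle genes, Diaph3, Prc1, Kif15 and Tpx2 were no longer called with each nucleus weighted equally. Cdk1, Prc1, Kif15 and Tpx2 were no longer called with voom weights, nor with a pseudocount of 5 CPM. With voom weights the adjusted p was 0.105 for Spp1 and 0.148 for Gpnmb, their highest, and without SBP replicate 1 it was 0.111 for Dbp and 0.0718 for Clock. Without sham replicate 3 it reached 0.11 for Postn, 0.164 for Plaur, 0.144 for Mhrt, 0.164 for Ciart, 0.168 for Ryr2, 0.0871 for Myl2, 0.0615 for Tnni3, 0.15 for Cox7a1 and 0.1 for Diaph3.

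**Figure D5:**
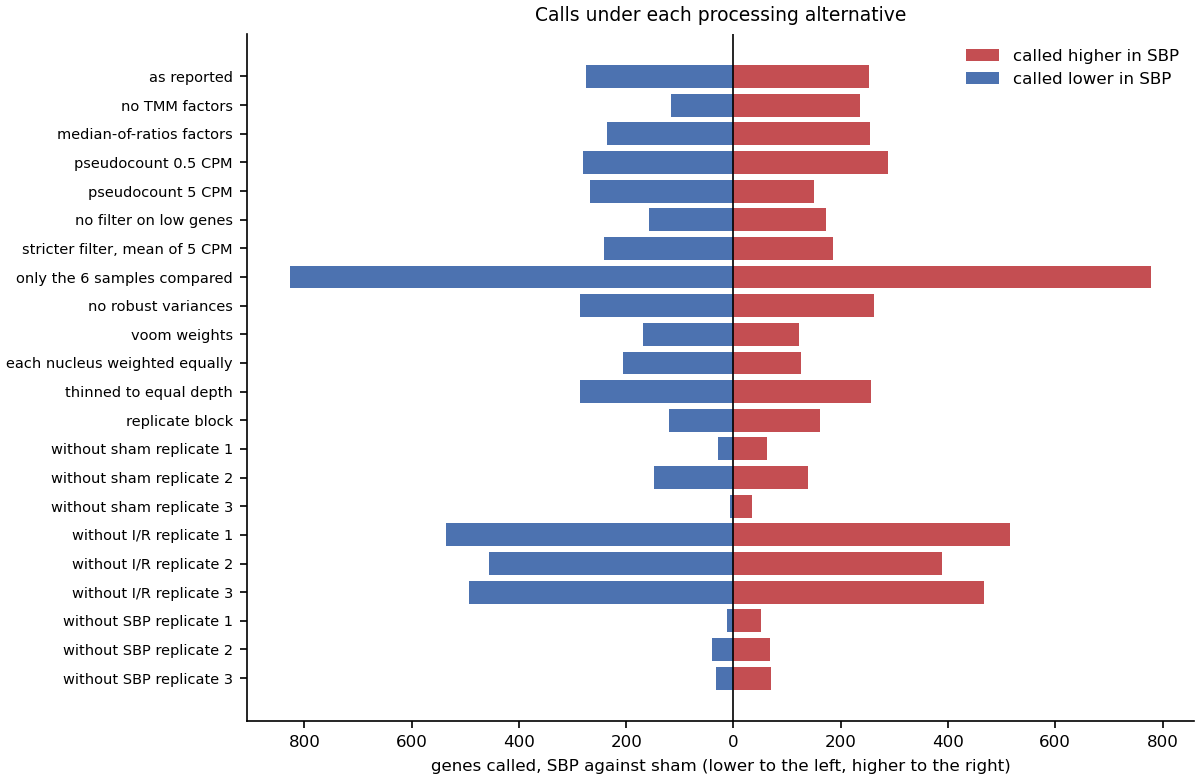
Number of genes called higher and lower in SBP against sham under the main setting and each of the 21 alternatives, as horizontal bars from 0. The main setting gave 252 higher and 275 lower, and leaving out single mice gave 35 to 515 higher and 7 to 536 lower.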

How the data were processed

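Hearts of 9 mice (3 sham, 3 I/R and 3 SBP, 1 library each, grouped by the sample titles) were profiled by sNuc-seq. The study's methods name fastp for read filtering and CellRanger on mm10 for UMI counting, after which the authors left out mitochondrial genes, and the submitters' processing notes name Cell Ranger 4.0, STAR, Seurat 3.2.0 and GRCm38. Each deposited value is a natural log computed by the authors, ln(1 + 10000 × UMIs of the gene / UMIs of the nucleus), for 23747 genes and nuclei with at least 405 genes. The log was undone and the smallest non-zero value of a nucleus taken as 1 UMI, after which at least 99.99936% of the values lay within 0.1 UMI of a whole number. Doublets were not called. Shared barcodes over all libraries numbered 290.

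UMIs were summed per library and scaled with TMM factors (0.903 to 1.067). A gene was tested if at least 3 samples reached the CPM that 10 UMIs make in the library of median size and if it had 15 UMIs in all. limma 3.58.1 (R 4.3.3; trend, robust) was fitted to log2(CPM + 1) of all 9 samples with 3 groups, and SBP was contrasted with sham. P-values measure the spread between mice. On simulated counts for this contrast, 96% of 200 genes with a log2 fold change of 2 were recovered (16037 genes tested). The naming rule gave 137 genes. These were the 12 largest rises and the 12 largest falls among called genes without overlap of the groups and with a mean of at least 10 CPM in either, from each list up to 4 called members of largest change (at least 5 CPM) and up to 2 of highest level that were not called, 26 genes taken from the study, and up to 10 genes called against I/R (there were 0). Genes named outside it are called members of lists, genes called under every alternative, and, called or not, class markers and the clock genes whose window held the motif. The members, the gene lists and the tests were chosen with earlier results of these data known. RefSeq promoters matched 12060 of the tested genes. Alternatives were another scaling (none, median of ratios), pseudocount, filter, sample set, variance model, weighting of nuclei, thinning to equal depth, a replicate block and leaving out each mouse. The scaled marker score was added after seeing the data.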

Additional observations from a re-analysis of the deposited data

How the results depend on the processing

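Against the 527 genes called (252 higher, 275 lower in SBP), fitting only the 6 sham and SBP libraries gave 1604 (778 and 826), of which 525 were among the 527, no filter on low values gave 330 (158 lower), voom weights 290 (122 and 168) and a sum in which each nucleus counts equally 331 (125 higher). A pseudocount of 5 gave 150 higher, and without TMM 353 were called, 236 higher and 117 lower, while the median log2 fold change of all genes moved to 0.07. With the replicate number as a block 282 were called (161 higher and 121 lower), 259 of them among the 527. The numbers share no stated litter or day, and the deviations of same-numbered sham and SBP libraries correlated at 0.173, 0.052 and 0.025, so that they were not taken as pairs. Leaving out 1 mouse at a time gave 42 to 1051 calls in all, 35 to 515 higher and 7 to 536 lower. Each such fit holds 1 mouse fewer. The calls numbered 42 to 288 without a sham or SBP mouse, lowest without sham replicate 3, and 845 to 1051 without an I/R mouse. The cause was not tested. The remaining counts of calls stayed within 1.5 times. SBP against I/R gave 0 calls under every alternative, with 285 to 1388 genes at an unadjusted limma p under 0.05. For the 160 genes followed, 539 values passed the threshold in the main setting and not in the alternative, and 36 the reverse. Of the 137 genes the naming rule gave, 13 changed direction in an alternative, none of them called. These 13 are not described and are not among the 160, so that no value of the 160 changed direction. At this depth 1 UMI is a visible part of the sham level of Spp1, Arg1 and Chil3. The counting intervals given for the ratios of these genes hold counting error only and leave out the spread between mice.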
